A study of Homo sapiens with 6 samples.

Results

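The integrated stress response is the programme that cells run when translation is slowed by phosphorylation of the initiation factor eIF2, and ATF4 is its central transcription factor. The 10 genes described here are ATF4, its partner and successor factors ATF3, ATF5, DDIT3 and CEBPB, the regulators TRIB3, DDIT4 and SESN2, and the enzymes CHAC1 and ASNS. They were chosen by name as the core of this programme, with earlier results of these data known, and each matched exactly 1 of the 22794 genes listed. They were measured in poly(A) RNA of CAL-51, an established human breast carcinoma line, after transfection of a plasmid carrying p27 fused to the fluorescent protein mVenus. The cells were then sorted into p27-positive (p27+) and p27-negative (p27-) populations, with 3 libraries of each. The study's title concerns ferroptosis and the calcium channel TRPC6, and the comparison addresses how cells with high and low p27 reporter differ in their transcripts.

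p27, the product of CDKN1B, inhibits the kinases that drive entry into S phase. All libraries come from the same line and the same kind of transfection. No separate untransfected sample is analysed here, and the p27-negative population may include cells without the plasmid. A response to carrying or expressing the plasmid therefore cannot be told apart from the p27 state. In bulk RNA, fewer cells expressing a gene and less of its RNA per cell cannot be told apart either. The labels give no separate cultures or days for the libraries, so each p-value reflects only how far these samples spread, and that spread may be technical.

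ATF4 is made mainly when eIF2 is phosphorylated, because short reading frames in its leader otherwise keep ribosomes from its coding sequence. Its messenger level is therefore only part of its control, and no protein was measured. ATF4 pairs with C/EBP factors and binds composite C/EBP-ATF response elements (CARE), from which it raises genes of amino acid supply. Under lasting stress it also raises DDIT3, which encodes CHOP, and brakes such as TRIB3, DDIT4 and SESN2. Several of these genes answer to other regulators too, among them p53 for SESN2, DDIT4 and ATF3.

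The letters of a CARE, TGATGNAA on either strand, were looked for in the RefSeq promoter windows of build GRCh38.p14, which run from 250 bases before to 50 after a transcript start. All 10 genes had windows, 19 in all, and 3 of them, in ASNS, CHAC1 and ATF3, held a match, against 3.62% of the 35116 windows of all genes. Binding by ATF4 was not measured. The upstream 250 bases of those 3 are printed because they hold the letters of a CARE, with the match in capitals. That of DDIT4 follows because DDIT4 had the largest difference of the 10, and it holds no match. The windows are chr7:97872409-97872658 on the minus strand for ASNS, chr15:40953221-40953470 on the plus strand for CHAC1, chr1:212565157-212565406 on the plus strand for ATF3 and chr10:72273674-72273923 on the plus strand for DDIT4.
ASNS: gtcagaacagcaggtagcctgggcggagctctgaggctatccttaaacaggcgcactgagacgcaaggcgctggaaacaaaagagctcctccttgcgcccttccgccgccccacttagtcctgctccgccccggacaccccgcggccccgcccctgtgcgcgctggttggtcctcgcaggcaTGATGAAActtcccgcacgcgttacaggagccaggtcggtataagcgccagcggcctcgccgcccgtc
CHAC1: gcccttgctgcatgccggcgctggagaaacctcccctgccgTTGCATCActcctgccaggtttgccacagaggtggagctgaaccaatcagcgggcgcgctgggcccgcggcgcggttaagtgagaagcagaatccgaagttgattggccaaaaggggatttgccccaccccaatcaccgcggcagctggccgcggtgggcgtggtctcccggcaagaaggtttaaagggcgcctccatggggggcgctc
ATF3: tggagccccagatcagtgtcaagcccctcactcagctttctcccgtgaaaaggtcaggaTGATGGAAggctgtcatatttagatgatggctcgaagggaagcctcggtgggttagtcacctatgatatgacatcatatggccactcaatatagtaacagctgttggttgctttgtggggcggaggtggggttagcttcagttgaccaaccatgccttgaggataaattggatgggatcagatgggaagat
DDIT4: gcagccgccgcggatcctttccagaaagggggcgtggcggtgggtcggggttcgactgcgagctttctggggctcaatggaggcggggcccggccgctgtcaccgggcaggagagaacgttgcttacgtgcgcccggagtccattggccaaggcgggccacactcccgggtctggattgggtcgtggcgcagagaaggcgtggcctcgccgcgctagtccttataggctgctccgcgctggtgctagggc
The match began 68 bases before the start in ASNS, 191 before it in ATF3 and 209 before it in CHAC1, where it lies on the opposite strand. The other 7 genes had no match, which says only that these letters are not in these windows. Neither a full cyclic AMP response element, TGACGTCA, nor the endoplasmic reticulum stress element (ERSE), each read on both strands, was found in any of the 19 windows. They occurred in 1.85% and 0.0769% of all windows.

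The libraries held 22216934 to 28609257 reads on listed genes. Values below are normalized counts, the authors' reads per gene divided by a size factor per library. Log2 fold changes give p27-positive relative to p27-negative cells on the log2(normalized count + 1) scale, which understates the change of low genes. They are given ± SE from limma, with p-values adjusted by Benjamini-Hochberg over the 15950 genes that had a mean of at least 10. All 10 genes passed that filter. Markers of the line itself differed between the groups. The keratin gene KRT8 was at 85740 to 89330 normalized counts in p27-positive and 56964 to 57494 in p27-negative libraries, and KRT19 at 24462 to 25093 against 7328 to 7656. EPCAM was at 516 to 652 against 636 to 796 and VIM at 2099 to 2224 against 2418 to 2697, while CDH1, the epithelial cadherin gene, was at or near 0 in every library (0 to 6.95). Of 7 leukocyte markers 3 were listed, with a summed level of 78.7 to 130 in p27-positive and 47.9 to 97.0 in p27-negative libraries, and PTPRC at 12.2 to 34.2. Of 7 endothelial and stromal markers 5 were listed, with a summed level of 4467 to 4783 in p27-positive and 2814 to 2894 in p27-negative libraries. VWF and CDH5 made up most of that sum, and PECAM1 was at 0 to 8.90. The part of these markers in the results was not tested. On the 2nd principal component p27-negative replicate 3 (53.9) stood apart from p27-negative replicates 1 (-28.6) and 2 (-24.5).

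The p27-positive cells held far more DDIT4 and SESN2 messenger and more CHAC1, while the messengers of ATF4 itself and its relative ATF5 were slightly lower on the authors' scaling. DDIT4 was 6.66-fold higher, SESN2 3.12-fold and CHAC1 1.90-fold. DDIT3, CEBPB and TRIB3 also passed the test upward, by 1.51-fold, 1.19-fold and 1.15-fold. Of the 10 genes 6 rose and 2 fell, against 25.5% and 27.1% of all genes tested, and 52.6% in either direction. The share that rose was above the background and the share that fell was not. The groups did not overlap in 9 of the 10 genes, 7 of them higher (background 28.5%) and 2 lower (29.1%), where 57.7% of all genes had no overlap in either direction. Without p27-negative replicate 3, 5 of the 10 genes passed upward and 2 downward, and without p27-positive replicate 3 the counts were 4 and 2. The median log2 fold change was 0.36 over the 10 genes and 0.03 over all genes tested.

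**Figure D1:**
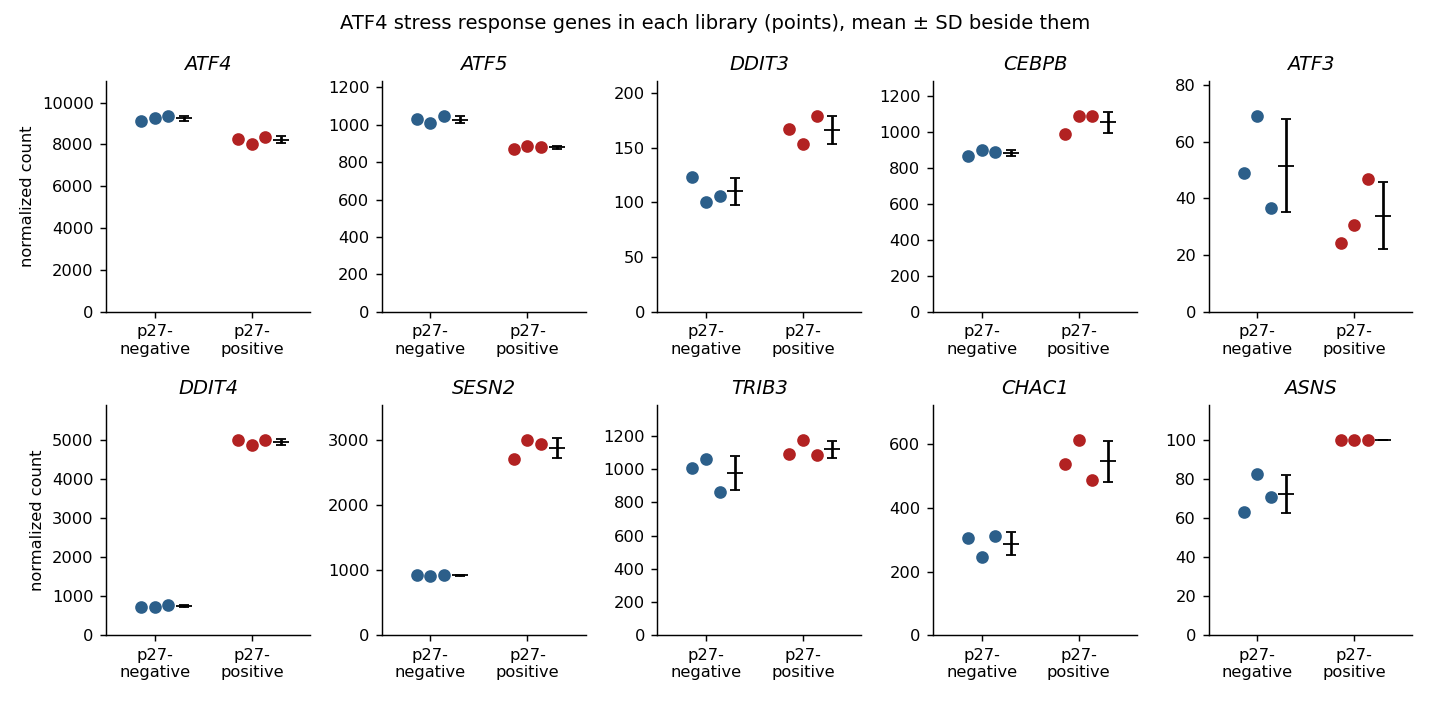
Normalized counts of the 10 genes in each library, p27-negative in blue and p27-positive in red, with the mean ± SD of the 3 libraries beside the points and each axis starting at 0. DDIT4, SESN2 and CHAC1 are clearly separated upward, ATF4 and ATF5 downward by a small step, and the groups overlap only in ATF3.

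Among the transcription factors, ATF4 (ENSG00000128272, chromosome 22, 39519695 to 39522683, plus strand, build hg38) was the most abundant messenger of the 10. It was at 8257, 8035 and 8361 normalized counts in p27-positive and 9101, 9285 and 9348 in p27-negative libraries. Every p27-positive library was below every p27-negative library. The log2 fold change was -0.17 ± 0.04 (limma, adjusted p = 9.7e-05). This small decrease was lost under each of 4 other scalings, with log2 fold changes of -0.058 after upper-quartile rescaling, -0.0395 after scaling to the library total, -0.0395 in the FPKM table (fragments scaled to transcript length and library size by the authors) and 0.057 after quantile normalization. Upper-quartile rescaling alone moved the median of all genes by 0.11 and scaling to the library total by 0.13.

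ATF5 (ENSG00000169136, chromosome 19, 49928702 to 49933935, plus strand), a relative of ATF4 whose translation is held back in the same way, followed the same pattern. It was at 872, 888 and 880 normalized counts in p27-positive and 1029, 1009 and 1046 in p27-negative libraries, again without overlap. Its log2 fold change was -0.22 ± 0.08 (limma, adjusted p = 0.018), and the call was lost under the same 4 scalings, at -0.092 to -0.16. The gene shares 21.2% of its exonic bases in GENCODE release 29 with exons on the opposite strand, of NUP62 and IL4I1. NUP62 was at 1704 to 1973 against 2525 to 2772 normalized counts and IL4I1 at 86.5 to 152 against 8.90 to 40.0. The strand setting of the counting is not given in the sources used here, so reads of these genes could be mixed. A same-strand transcript, ENSG00000283842, shares a further 2.51%.

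DDIT3 (ENSG00000175197, chromosome 12, 57516588 to 57521737, minus strand), the gene of the pro-death factor CHOP, was expressed at a low level and was higher in p27-positive cells. It was at 167, 153 and 179 against 124, 100 and 106 normalized counts. The lowest p27-positive library stood above the highest p27-negative one. That difference was 0.60 ± 0.21 on the log2 scale (limma, adjusted p = 0.018). The call was lost without p27-positive replicate 3 (0.54, adjusted p = 0.076 by limma), without p27-negative replicate 2 (0.53, adjusted p = 0.055) and after quantile normalization, where the log2 fold change was 0.24. DDIT3 shares 31.6% of its exonic bases with MARS1 and MBD6 on the opposite strand and 8.03% with a same-strand gene, ENSG00000285133. MARS1 was far more abundant, at 5351 to 6772 normalized counts, and MBD6 was at 989 to 1054 against 666 to 708, so the level of DDIT3 is uncertain too.

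CEBPB (ENSG00000172216, chromosome 20, 50190830 to 50192668, plus strand) encodes a C/EBP factor that pairs with ATF4 at CARE sites. It was at 986, 1087 and 1086 normalized counts in p27-positive and 864, 899 and 886 in p27-negative libraries. The groups were separate, with a step that was small beside those of DDIT4 and SESN2. On the log2 scale CEBPB was higher by 0.25 ± 0.08 (limma, adjusted p = 0.0082) and passed the test under all 18 alternatives, at 0.23 to 0.38. An opposite-strand gene, CEBPB-AS1, shares 11.8% of its exonic bases and was at 9.05 to 45.7 normalized counts.

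ATF3 (ENSG00000162772, chromosome 1, 212565334 to 212620777, plus strand), a rapidly induced repressor of the same family, had the lowest level of the 10. It was at 24.1, 30.7 and 46.9 normalized counts in p27-positive and 48.9, 69.0 and 36.5 in p27-negative libraries. These values overlapped. The log2 fold change of -0.59 ± 0.41 did not pass (limma, adjusted p = 0.23), with a 95% interval of -1.42 to 0.23. The libraries held 24 to 62 reads of it. After quantile normalization it passed, at -1.04 (limma, adjusted p = 0.034), and p27-positive replicate 3 held more than p27-negative replicate 3.

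**Figure D2:**
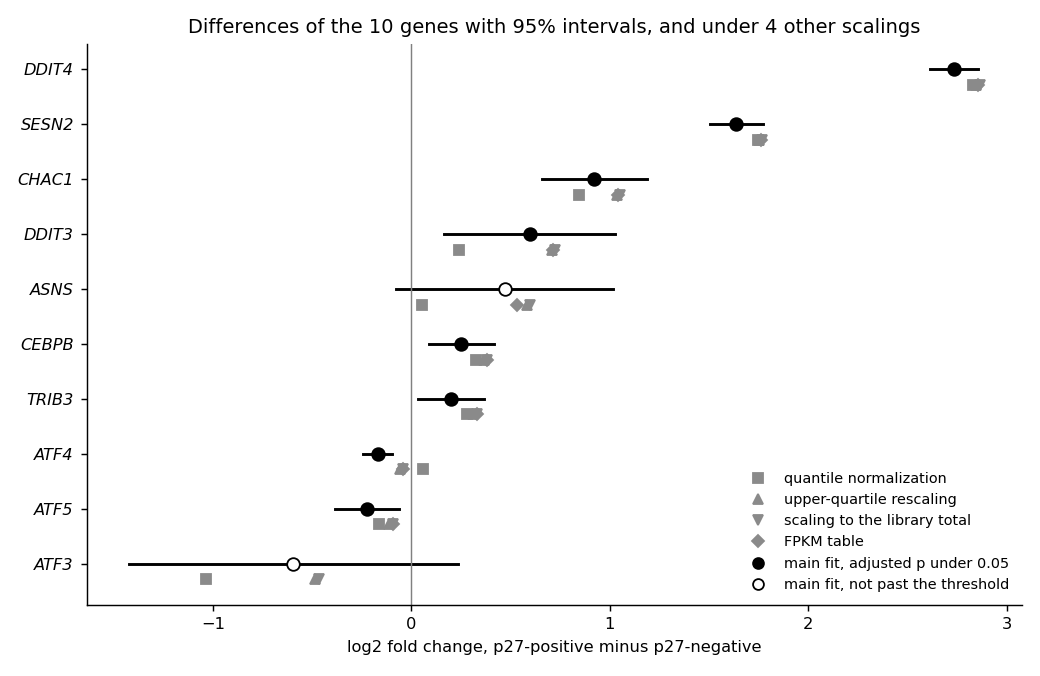
Log2 fold changes of the 10 genes with 95% intervals from limma (circles, filled where the adjusted p is under 0.05), and the values under 4 other scalings (grey symbols). DDIT4 at 2.74, SESN2 at 1.64 and CHAC1 at 0.92 stay far above 0 under each scaling shown, while ATF4 turns from -0.17 to 0.057 with quantile normalization.

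DDIT4 (ENSG00000168209, chromosome 10, 72273919 to 72276036, plus strand) encodes REDD1, an inhibitor of the growth kinase mTORC1. It had 5007, 4866 and 4992 normalized counts in p27-positive and 728, 732 and 771 in p27-negative libraries. The libraries of each group lay close together, with SDs of 77.8 and 23.5. The log2 fold change was 2.74 ± 0.06 (limma, adjusted p = 4.5e-32), the 13th smallest p and the 210th largest increase among 15950 genes. It ran from 2.72 to 2.87 over the 18 alternatives and passed in each. An opposite-strand gene, DDIT4-AS1, shares 41.2% of its exonic bases in GENCODE release 29. DDIT4-AS1 is not among the genes listed, so its level is not known here. As the strand setting of the counting is not given, its reads could be mixed with those of DDIT4.

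SESN2 (ENSG00000130766, chromosome 1, 28259518 to 28282491, plus strand) encodes sestrin 2, a leucine sensor that also restrains mTORC1. It was at 2706, 3001 and 2931 normalized counts in p27-positive and 931, 917 and 922 in p27-negative libraries. Its log2 fold change was 1.64 ± 0.07 (limma, adjusted p = 1.5e-23), and it passed under all 18 alternatives at 1.61 to 1.77. DDIT4 and SESN2 thus had the largest increases among the 10 genes. The activity of mTORC1 was not measured.

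TRIB3 (ENSG00000101255, chromosome 20, 362835 to 397559, plus strand), a pseudokinase that binds ATF4 and CHOP and dampens them, differed little. It was at 1092, 1176 and 1088 normalized counts in p27-positive and 1006, 1061 and 863 in p27-negative libraries. The groups were separate by a narrow margin. The log2 fold change of 0.20 ± 0.08 passed by limma (adjusted p = 0.039), but it did not pass by edgeR (adjusted p = 0.0501) or DESeq2 (adjusted p = 0.0596) on recovered reads. Nor did it pass without p27-negative replicate 3, the library that stands apart, where it was 0.11 (limma, adjusted p = 0.28), or without any of the 3 p27-positive libraries (limma, adjusted p = 0.052 to 0.16).

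CHAC1 (ENSG00000128965, chromosome 15, 40952962 to 40956512, plus strand) encodes a cyclotransferase that breaks down glutathione, the reductant used by the ferroptosis-limiting enzyme GPX4, and is a widely used marker of the ATF4 arm. It was at 537, 613 and 487 normalized counts in p27-positive and 305, 247 and 311 in p27-negative libraries. The lowest p27-positive library was well above the highest p27-negative one. Its log2 fold change was 0.92 ± 0.13 (limma, adjusted p = 9.8e-08), and it passed under all 18 alternatives at 0.82 to 1.05.

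ASNS (ENSG00000070669, chromosome 7, 97851677 to 97872542, minus strand) encodes asparagine synthetase, the enzyme on whose promoter the CARE was long studied. It was at 99.6, 99.8 and 99.8 normalized counts in p27-positive and 63.2, 82.3 and 70.8 in p27-negative libraries. The groups did not overlap, yet the log2 fold change of 0.47 ± 0.27 did not pass (limma, adjusted p = 0.15), with a 95% interval of -0.08 to 1.02. Without the trended prior, which gives genes of low level a larger spread, it passed (limma, adjusted p = 0.019). A long noncoding gene on the same strand, ENSG00000284707, covers 99.9% of its span, and in GENCODE release 29 it shares 44.6% of the exonic bases of ASNS. How reads in both genes were assigned is not given in the sources used here, so the level of ASNS is uncertain. That noncoding gene was at 46.0 to 63.4 normalized counts in p27-positive and 31.2 to 37.7 in p27-negative libraries.

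Per transcript length, ATF4 stood first in both groups and the places below it changed. In p27-negative cells ATF4 was at 139 ± 2.15 FPKM (SD, n = 3), followed by CEBPB at 18.9 ± 0.38, ATF5 at 13.98 ± 0.28 and DDIT4 at 13.8 ± 0.47. ATF5 and DDIT4 did not differ beyond their spread there, nor did TRIB3 (11.7 ± 1.19) and SESN2 (10.5 ± 0.08). CHAC1 (5.51 ± 0.68) and DDIT3 (3.31 ± 0.37) came next, and ASNS (0.579 ± 0.077) and ATF3 (0.506 ± 0.160) overlapped at the bottom. In p27-positive cells DDIT4 stood next to the top at 101 ± 0.97 FPKM, below ATF4 at 135 ± 2.28, and SESN2 followed at 35.8 ± 2.20. CEBPB (24.7 ± 1.54), TRIB3 (14.6 ± 0.75), ATF5 (13.1 ± 0.23) and CHAC1 (11.5 ± 1.39) followed, of which ATF5 and CHAC1 overlapped. The last places went to DDIT3 (5.48 ± 0.40), ASNS (0.877 ± 0.008) and ATF3 (0.365 ± 0.127). Exons shared with other genes, given above, leave the places of ASNS and DDIT3 uncertain, and could also affect ATF5, CEBPB and DDIT4.

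Set against ATF4 in the same library, which needs no scaling between libraries, DDIT4 went from 9.92% ± 0.23 of the FPKM of ATF4 in p27-negative to 74.4% ± 0.63 in p27-positive cells (SD, n = 3). SESN2 went from 7.54% ± 0.16 to 26.5% ± 1.73 and CHAC1 from 3.96% ± 0.50 to 8.48% ± 1.16. CEBPB went from 13.6% ± 0.16 to 18.2% ± 1.15. ATF5 kept nearly the same ratio, at 10.05% ± 0.20 and 9.68% ± 0.27, and there the libraries overlapped. These ratios show unequal change between genes, not which of them changed.

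**Figure D3:**
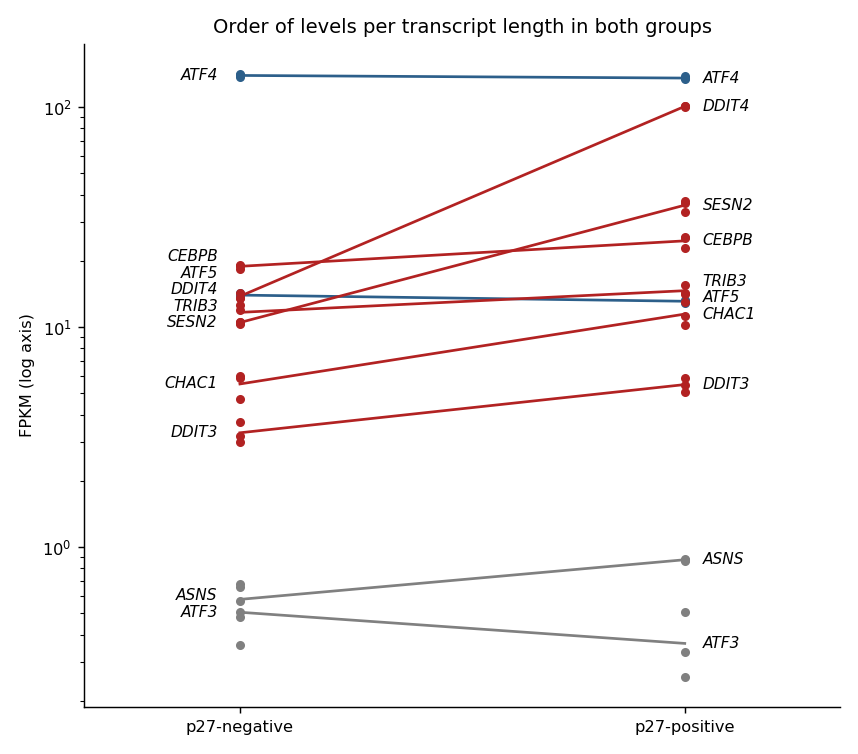
FPKM of the 10 genes on a log axis, with points for the 3 libraries of each group and lines joining the group means (red, higher by limma on normalized counts; blue, lower; grey, not past the threshold). DDIT4 moves from 13.8, beside ATF5, to 101, just below ATF4, while ATF4 remains first at 139 and 135.

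Among the genes upstream of ATF4, more fell than rose on the authors' scaling. Of 12 genes of the eIF2alpha kinases, phosphatase and sensors 1 rose (8.33%) and 4 fell (33.3%), against 25.5% and 27.1% of all genes tested. The share that fell was near the background. The median of these 12 was -0.02 and turned positive under the 4 other scalings. Among those that fell, EIF2AK4 (-0.11 ± 0.05) lay close to the threshold (limma, adjusted p = 0.0495). The count that fell was 3 without a filter, without the trended prior and by DESeq2. EIF2AK3, the gene of the reticulum stress kinase PERK, rose by 0.35 ± 0.10 on the log2 scale (656 ± 48.8 against 512 ± 7.63 normalized counts, mean ± SD, n = 3), a call lost in the FPKM table. EIF2AK2, which encodes the kinase PKR that senses double-stranded RNA, was at -0.37 ± 0.05 and EIF2S1, which encodes eIF2alpha itself, at -0.78 ± 0.05. PPP1R15A, a target of ATF4 and CHOP whose product GADD34 removes the phosphate from eIF2alpha, was 1.86-fold lower at 811, 823 and 890 against 1658, 1545 and 1502 normalized counts (-0.90 ± 0.08). After quantile normalization or scaling to the library total 5 of the 12 were called higher and 3 lower, after upper-quartile rescaling 3 and 3, while in the FPKM table the call was higher for 1 and lower for 3. All 5 subunits of eIF2B, the exchange factor that phosphorylated eIF2 blocks, fell, with a median of -0.32, led by EIF2B1 (-0.72 ± 0.08), EIF2B5 (-0.32 ± 0.06), EIF2B3 (-0.49 ± 0.12) and EIF2B2 (-0.30 ± 0.09). Under the 4 other scalings 3 or 4 of them were called lower and none higher, and without the trended prior 3 were called lower. The median was -0.20 after upper-quartile rescaling, -0.19 after scaling to the library total and -0.18 in the FPKM table.

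The targets of ATF4 in amino acid supply went both ways. Of 11 genes of amino acid synthesis 5 rose (45.5%) and 3 fell (27.3%), with a median of 0.14. Of all genes tested 25.5% rose and 27.1% fell. Among the 11 was CTH, the last step of cysteine synthesis from methionine, which rose 2.29-fold (2135 ± 66.9 against 933 ± 31.2 normalized counts). Of the serine synthesis genes, PSAT1 (0.77 ± 0.03) and PSPH (0.61 ± 0.07) rose and PHGDH (-0.22 ± 0.05) fell. The folate enzyme gene MTHFD2 (-0.35 ± 0.04) fell too. Without p27-positive replicate 1 or p27-negative replicate 2 the count of those that rose was 3, and the median was 0.23 to 0.27 under the 4 other scalings. Of 10 tested genes of amino acid transport 1 rose and 5 fell (median -0.11). The cystine importer gene SLC7A11 rose by 0.44 ± 0.05, and the leucine transporter gene SLC7A5 (-0.72 ± 0.03), its partner SLC3A2 (-0.56 ± 0.04), which also pairs with SLC7A11, and the glutamine carrier gene SLC38A1 (-0.51 ± 0.03) fell. The median of the transport list was positive after quantile normalization (0.05), after scaling to the library total (0.02) and in the FPKM table (0.02), and under each of the 4 other scalings 3 rose and 4 fell. Without p27-negative replicate 3 the counts were 2 and 6.

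Of 12 cytosolic aminoacyl-tRNA synthetase genes, which load amino acids onto their tRNAs, 9 fell and 2, WARS1 and CARS1, rose (median -0.25). Among all genes tested 27.1% fell and 25.5% rose, so the share that fell was above the background and the share that rose was not. The changes of the synthetase genes were small, as in IARS1 (-0.33 ± 0.04), TARS1 (-0.30 ± 0.04), NARS1 (-0.28 ± 0.04) and MARS1 (-0.27 ± 0.04). The count that fell was 8 after upper-quartile rescaling. It was also 8 after scaling to the library total, where 19.5% of all genes tested fell. In the FPKM table it was 6 and after quantile normalization 3. The median moved to -0.14 with upper-quartile rescaling, -0.12 with scaling to the library total, -0.12 in the FPKM table and -0.064 after quantile normalization. The letters of a CARE stood in a promoter window of 17 of the 94 tested genes around ATF4 that had a window. Many of the 17 were synthetase and transporter genes. Of these 17 genes 11 fell and 2, CARS1 and HERPUD1, rose, and of the other 77 genes 37 fell and 20 rose. After quantile normalization 7 of the 17 fell and 5 rose, and under the other scalings 9 or 10 fell and 3 rose. Over all genes tested with a window, 26.5% of the 291 with a CARE fell and 26.8% rose, against 31.8% and 27.1% of the 10774 without it.

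The further targets of ATF4 and CHOP outside amino acid supply held more genes that rose than fell. PPP1R15A, a target of both that fell, is counted with the genes upstream of ATF4 and not in this list. Of 19 tested 9 rose (47.4%) and 5 fell (26.3%), with a median of 0.49, against 25.5% and 27.1% of all genes tested. The share that fell was near the background. Under the other scalings 9 or 10 were higher and 3 or 4 lower. The median was 0.19 without p27-negative replicate 3, 0.27 after quantile normalization and 0.32 at a minimum mean of 50. GDF15, a secreted stress hormone, rose 3.69-fold (685 ± 32.0 against 186 ± 21.7 normalized counts), KLHL24 3.13-fold, BBC3, the gene of the pro-apoptotic protein PUMA, 3.44-fold and TNFRSF10B, a death receptor gene, 1.77-fold. GDF15, BBC3 and TNFRSF10B are also well-known p53 targets. The 6 lists of the pathway together held 69 tested genes, of which 18 were higher (26.1%) and 31 lower (44.9%), and their median was -0.08. The share that rose was near the background of 25.5%, and the share that fell was above that of 27.1%. Without p27-negative replicate 3 the median was -0.14. When each library was scaled to its total, 27 were higher and 23 lower, against backgrounds of 33.5% and 19.5%, and the median turned to 0.05.

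**Figure D4:**
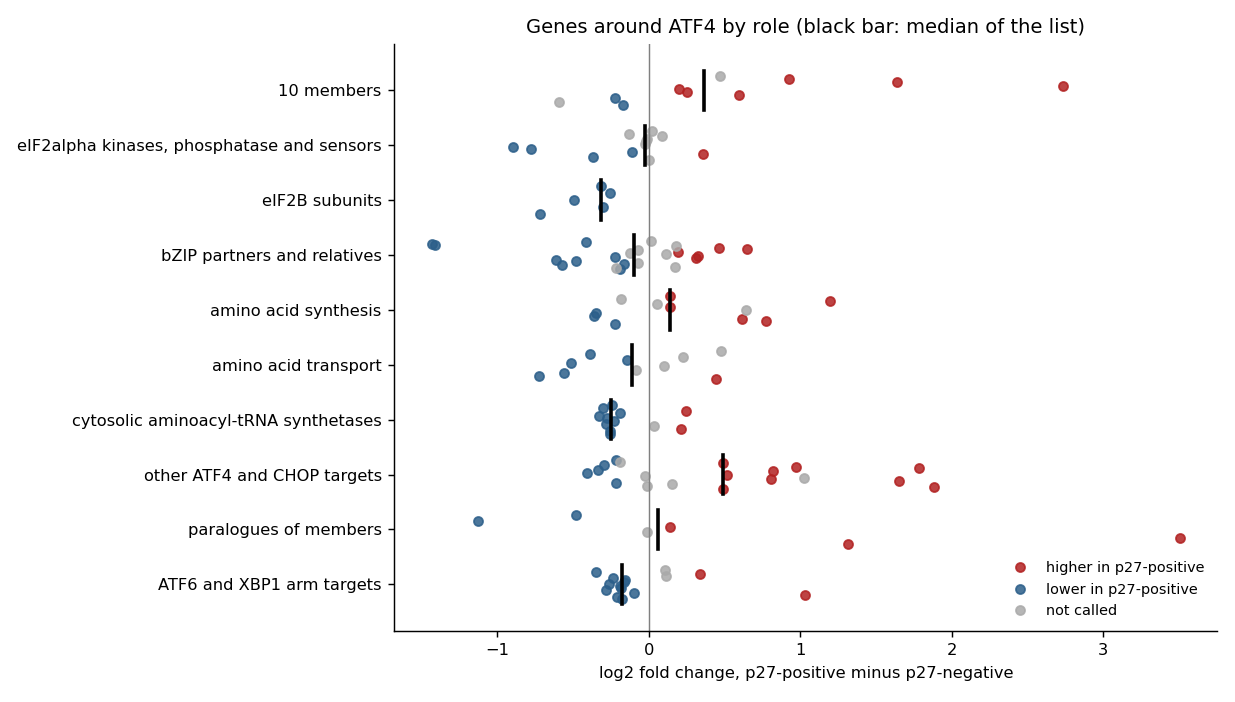
Log2 fold changes of the 10 genes and of the tested genes in 9 lists around ATF4, coloured by the limma call, with the median of each list as a black bar. On the authors' scaling the synthetase genes cluster near -0.25 (-0.064 to -0.14 under 4 other scalings) and the further ATF4 and CHOP targets spread up to 1.88, with SESN3 at 3.51 as the farthest point.

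Close relatives of the 10 genes did not move alike. SESN3 rose 11.1-fold, from 166, 177 and 102 to 1617, 1666 and 1657 normalized counts, and SESN1 rose 2.49-fold, so that all 3 sestrin genes were higher. CHAC2, which encodes the slower relative of the CHAC1 enzyme, fell by 1.13 ± 0.15 on the log2 scale, from 400, 477 and 392 to 171, 182 and 228, the opposite sign to CHAC1. ASNSD1, a gene with an asparagine synthetase domain, was at -0.48 ± 0.09. In the 6 tested relatives 3 rose and 2 fell, against 25.5% and 27.1% of all genes tested. The counts of 3 and 2 were the same under the 4 other scalings. With scaling to the library total, 33.5% of all genes tested rose and 19.5% fell. Whether so short a list departs from these shares was not tested.

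Among 22 tested factors of the basic leucine zipper family and namesakes 5 rose (22.7%) and 9 fell (40.9%), with a median of -0.10. Of all genes tested 25.5% rose and 27.1% fell. XBP1, the factor of the IRE1 arm of reticulum stress, rose 1.56-fold (5539 ± 225 against 3542 ± 161 normalized counts). FOSL1 (-1.41 ± 0.13) and MAFF (-1.43 ± 0.14) fell. CEBPZ (-0.57 ± 0.06) is in that list by its name alone and is not a C/EBP leucine zipper factor. The median turned slightly positive after upper-quartile rescaling (0.01), after scaling to the library total (0.03) and in the FPKM table (0.03). Of 15 targets of the ATF6 and XBP1 arms 11 fell (73.3%) and 2 rose (13.3%), with a median of -0.18. The chaperone genes CALR (-0.24 ± 0.03), HSP90B1 (-0.21 ± 0.03) and HSPA5 (-0.18 ± 0.03) were slightly lower, and DNAJB9, a co-chaperone gene induced by XBP1, rose 2.04-fold (881 ± 32.7 against 432 ± 32.5). Only 2 to 4 of these 15 were called lower under the 4 other scalings, with medians of -0.063 to -0.020, and HSPA5 was at 0.020 after quantile normalization.

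The genes whose pattern over the 6 libraries was most like that of ATF4 were LRFN3, DBF4B and TOR1A, with Pearson's r of 0.9996, 0.997 and 0.997 on the log2 scale among 11095 coding genes with a mean of at least 50. Those most like DDIT4 were CALCOCO1, UBE2H and RAB11FIP4, with r of 0.99993, 0.9998 and 0.9998. These r have no p, since all 6 points fall into the same 2 groups. As 392 genes reached an r of 0.99 with DDIT4 and 62 with ATF4, many other genes share the step between the groups. By the deviations from the group means, the genes most like ATF4 were VSIG10L, TEF and PITRM1 (r = 0.996, 0.994 and 0.994). Those most like DDIT4 by this measure were CORO1A, NBEA and UBE2L6 (r = 0.997, 0.997 and 0.994), over the same 6 libraries. These r have no p either, as they are the largest picked from 11095 genes over few libraries. How large an r unlinked genes would reach was not tested.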

How the data were processed

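Poly(A) RNA libraries were made with a stranded kit, per the labels' protocols. The submitters' processing notes name build hg38 and the tools STAR, featureCounts and DESeq2. Versions, annotation release and strand setting were not given in the sources used here. The signal that the main test used is a read count scaled by the authors with DESeq2 size factors, per the file headers. A further deposited table holds the authors' FPKM values. In every library all normalized counts (100%) were whole multiples of the value of 1 read (tolerance 1e-06), which gave back the reads.

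The main test was limma 3.58.1 (R 4.3.3), two-sided, with a trended prior, on log2(normalized count + 1). Group was its only term, and calls needed a Benjamini-Hochberg adjusted p under 0.05. The 10 genes and all lists were chosen with earlier results of these data known. The rule for named genes took all 10, the 4 of smallest p in each list and, by likeness to ATF4 or DDIT4, the 3 with the largest r. WARS1, CARS1, HERPUD1, PHGDH, EIF2AK4 and the overlapping genes were named after their values were seen. The 18 alternatives were pseudocounts of 0.5 and 5, no filter, a minimum of 50, quantile, upper-quartile and library-total scaling, log2(FPKM + 0.1) at a mean FPKM of at least 0.5, no trended prior, a replicate block, edgeR 4.0.16 and DESeq2 1.42.0 on recovered reads, and each of the 6 libraries left out. The limma fit with a trended prior, edgeR and DESeq2 were each tried on simulated counts. The other alternatives were not. Promoter sequences are from RefSeq.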

Additional observations from a re-analysis of the deposited data

How the results depend on the processing

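DDIT4, SESN2, CHAC1 and CEBPB kept their direction and their call under all 18 alternatives. With quantile normalization, upper-quartile rescaling, scaling to the library total and the FPKM table, the count of the 10 genes called lower went from 2 to 1, 0, 0 and 0. In that order of settings the log2 fold change of ATF4 went from -0.17 to 0.057, -0.058, -0.0395 and -0.0395, and that of ATF5 from -0.22 to -0.16, -0.11, -0.093 and -0.092. Quantile normalization also gave -1.04 for ATF3, which then passed, 0.24 for DDIT3, which did not, 0.020 for HSPA5 in place of -0.18, and 20 genes of the pathway lists called lower in place of 31. The FPKM values called 2832 of all genes lower in place of 4318, with fewer genes tested, and ATF3 fell under their filter. Without the trended prior TRIB3 (0.20) lost its call and ASNS (0.47) gained one, and TRIB3 also lost it by edgeR (0.19) and DESeq2 (0.20). The causes were not tested. With each library left out in turn, DDIT3 ran from 0.53 to 0.68 and TRIB3 from 0.11 to 0.26, the pathway lists gave 16 to 20 genes called higher and 29 to 31 called lower, and 4 to 6 of the 10 genes were called higher and 2 lower. The labels do not say whether replicate numbers pair the samples. Same-numbered libraries shared almost no deviation from their group means (correlations 0.0090, -0.00051 and 0.011), which cannot show that they are unpaired. The fit with a replicate block called 6 of the 10 genes higher and 2 lower, and over all genes 4065 higher and 4330 lower. It changed no call among the 10 genes. ATF3 and ASNS had the fewest reads of the 10 genes, 24 to 62 and 62 to 115 per library, and the part of depth in their missing calls was not tested.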
